A study of Mus musculus with 2 samples.

Results

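NF-kappa-B is a family of dimeric transcription factors that was examined here in CD4 T cells of the gut epithelium, as the genes of its subunits and of the proteins that inhibit or modify it. The members were the genes Nfkb1, Nfkb2, Rel, Rela and Relb for the subunits, Nfkbia, Nfkbib and Nfkbie for the cytoplasmic inhibitors, and Bcl3 and Nfkbiz for the nuclear inhibitor-like proteins. They were chosen by an exact match of the gene symbol in the deposited table, which gave 10 of the 20662 genes with a symbol of their own and 19 of the 45101 probe sets. A probe set is a group of array probes read together as 1 signal, and 5 of the members had several.

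The cells were intraepithelial lymphocytes (IEL) of the small intestine from RAG knockout mice, hosts without own T and B cells, 8 weeks after they had received naive CD4 T cells. Both groups carry the label C57BL/6 and share the RAG knockout host and the transfer, and they differ in the sort: CD4 IEL lacked CD8 alpha, while CD4CD8aa IEL carried it besides CD4. Each group was measured on 1 array, so every difference here compares these 2 arrays, without replicates and without a test. The host still has its epithelial and myeloid cells, and the RAG gene deleted, the age of the mice and the number of animals behind each RNA are not stated in the labels.

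Signals are given as multiples of the median signal of the array, which was 82.5 in raw units for CD4 IEL and 81.1 for CD4CD8aa IEL. Differences are log2 of CD4CD8aa IEL minus CD4 IEL. Signals under 0.4 times the median were raised to that floor, and all 19 member probe sets lay above it on both arrays. The only measure of spread was the SD of the differences between probe sets of the same gene, at like signal. It was taken over all genes with several probe sets, and was 0.41 between 16 and 64 times the array median. This SD holds the disagreement among probe sets read on the same arrays. It leaves out variation between animals, sorts, RNA preparations or arrays that the probe sets of a gene share. Multiples of this SD therefore cannot gauge whether the populations differ. As a check of the labels, the brightest probe set of Cd8a read 3.79 on the CD4 IEL array and 291.4 on the CD4CD8aa IEL array, and that of Cd4 read 72.6 and 86.4.

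In resting cells most NF-kappa-B dimers are held in the cytoplasm by inhibitors of the I-kappa-B (IkB) family. Signals from the T cell receptor, from costimulatory receptors, and from TNF and IL-1 family receptors activate the IkB kinase (IKK) complex, which marks the inhibitors for destruction and frees the dimers to enter the nucleus. Nfkbia is itself a target gene of NF-kappa-B and closes a negative feedback loop. Nfkb1 and Nfkb2 encode long precursors that are cut to DNA-binding subunits, and their uncut forms also act as inhibitors. Bcl3 and the Nfkbiz product IkB-zeta work in the nucleus, where they bind dimers of the processed subunits and raise or lower the transcription of selected genes. In mouse T cells, IkB-zeta is known for its part in the development of Th17 cells.

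The windows around the start sites of Bcl3, Nfkbia and Nfkbie are shown because the first pair had the differences described below and the last had nearly none. They come from RefSeq (build GRCm38.p6), run 5′ to 3′ on the strand of the gene from 250 bases before the start site to 50 bases after it, and were searched on both strands for the kappa-B consensus motif, the site that NF-kappa-B dimers bind. Capitals mark the matches.
Bcl3, chr7:19822706-19823005, minus strand: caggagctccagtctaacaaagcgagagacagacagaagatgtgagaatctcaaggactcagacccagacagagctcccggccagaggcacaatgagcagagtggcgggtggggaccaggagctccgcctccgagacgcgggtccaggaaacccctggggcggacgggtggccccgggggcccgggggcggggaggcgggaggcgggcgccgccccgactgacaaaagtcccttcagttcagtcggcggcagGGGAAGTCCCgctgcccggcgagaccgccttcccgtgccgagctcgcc
Nfkbia, chr12:55492598-55492897, minus strand: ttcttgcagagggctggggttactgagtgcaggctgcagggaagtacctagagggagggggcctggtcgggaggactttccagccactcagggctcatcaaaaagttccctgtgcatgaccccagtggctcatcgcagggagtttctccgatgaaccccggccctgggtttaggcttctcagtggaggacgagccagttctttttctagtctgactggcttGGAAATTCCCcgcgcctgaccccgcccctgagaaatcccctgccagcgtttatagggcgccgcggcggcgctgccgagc
Nfkbie, chr17:45555450-45555749, plus strand: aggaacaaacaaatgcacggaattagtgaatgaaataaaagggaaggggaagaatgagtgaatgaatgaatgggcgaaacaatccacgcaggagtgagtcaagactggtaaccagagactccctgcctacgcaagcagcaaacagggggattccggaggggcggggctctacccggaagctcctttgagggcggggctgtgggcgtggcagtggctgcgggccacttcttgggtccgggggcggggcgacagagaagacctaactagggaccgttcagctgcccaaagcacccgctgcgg

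The match of Bcl3 begins at position 2 and that of Nfkbia at position -29 relative to the start site, and the window of Nfkbie holds none. Windows were found for 7 of the 10 members, of which 4 (Bcl3, Nfkbia, Nfkb2 and Rel) hold a match and 3 (Rela, Nfkbib and Nfkbie) do not. Of all 32851 windows of this length, 5.81% hold one. A match describes letters only. At the brightest probe sets, the 4 with a match had differences of 1.27, -0.10, 0.03 and -0.04, in the order named. The 3 without had 0.39, 0.03 and 0.07. The printed windows were chosen by their differences, and whether a match goes with a difference was not tested. No window was printed or searched for Nfkb1, Relb and Nfkbiz.

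Bcl3 was higher in CD4CD8aa IEL, while Nfkbia and Nfkbiz were lower at every one of their probe sets, and the subunits differed little. Taking the brightest probe set of each gene, 1 member (Bcl3) was higher by 2-fold or more, against 6.65% of the 17375 genes detected on at least 1 array, and 0 were lower by 2-fold or more, against 6.26%. Among the 8083 genes that reached 4 times the array median on an array, as all 10 members did, the shares were 2.52% and 2.71%. The median difference of the members was 0.03, beside 0.06 over all detected genes, with 6 members above 0 and 4 below. The members' median was on the other side of 0 with quantile normalization (-0.01) and with centring on the median of all genes (-0.03), so no direction is given for the family. Counted by probe set, 1 of the 19 passed 2-fold upwards and 4 downwards (2 of Nfkbia and 2 of Nfkbiz), against 6.73% and 6.96% of all detected probe sets with a single symbol.

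**Figure D1:**
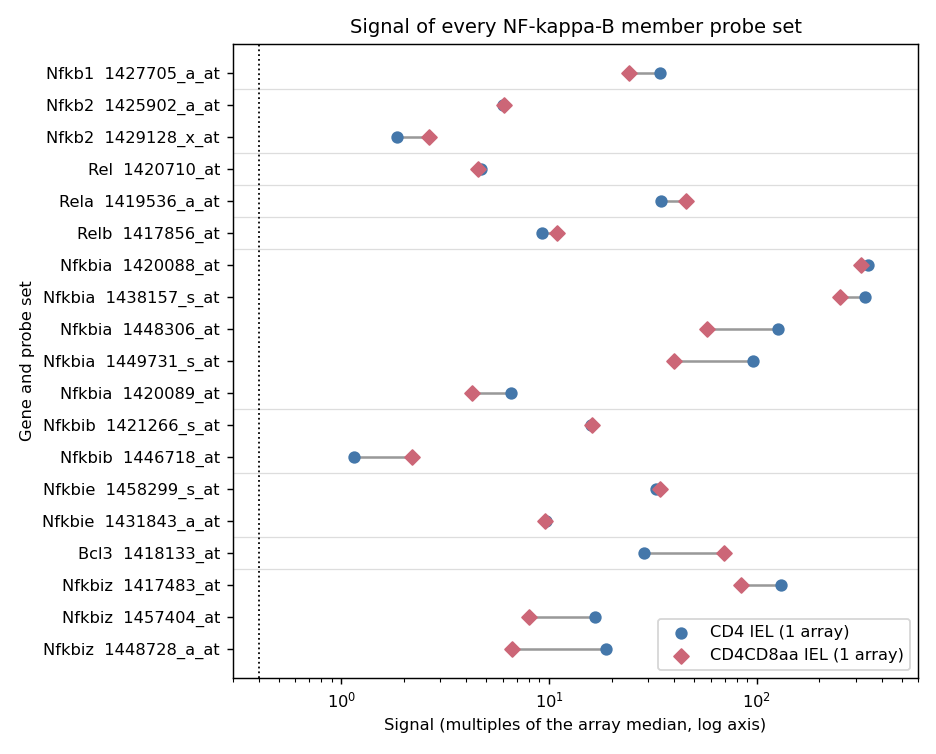
Signal of each of the 19 member probe sets, as multiples of the array median on a log axis, with 1 point for the CD4 IEL array and 1 for the CD4CD8aa IEL array and the floor of 0.4 as a dotted line. Bcl3 runs from 28.7 up to 69.4, the Nfkbia and Nfkbiz pairs all run downwards, and the brightest pairs of Nfkb2, Rel, Nfkbib and Nfkbie lie nearly on top of each other.

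For the subunits, the comparison asks whether transcripts of the factor itself differ between the populations. Rela, which encodes the main activating subunit of the canonical pathway, had 34.6 on the CD4 IEL array and 45.5 on the CD4CD8aa IEL array, a difference of 0.39. Nfkb1, the precursor of its usual partner, had 34.2 and 24.2, a difference of -0.50. These differences lie on either side of 0, and that of Rela was within the same-gene SD of 0.41 at this signal while that of Nfkb1 was 1.21 times the SD. Such a difference was not rare: 7.71% of the 3800 detected probe sets between 16 and 64 times the array median were at least as much lower as Nfkb1, and 17.9% at least as much higher as Rela.

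Rel encodes c-Rel, the subunit with known roles in T cell activation and in regulatory T cells. Its single probe set had signals of 4.69 and 4.56, a difference of -0.04. Relb and Nfkb2 encode the pair of subunits of the non-canonical pathway. Relb had 9.27 and 10.9, a difference of 0.24. The brighter probe set of Nfkb2 had 5.98 and 6.10, a difference of 0.03. For these 3 genes the difference was under the same-gene SD of 0.45 at 4 to 16 times the array median. The dimmer probe set of Nfkb2, with 1.86 and 2.64, gave 0.51, under the SD of 0.55 at that signal. In the deposited table that dimmer probe set carries the symbol Nfkb2 but the description of a clone for an exchange factor for ARF6, and 1 probe set with the symbol Psd, a gene that overlaps the end of Nfkb2 in RefSeq, carries the description of Nfkb2, and which gene either measures was not tested.

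Among the cytoplasmic inhibitors, Nfkbia encodes IkB-alpha. All 5 of its probe sets were lower in CD4CD8aa IEL, but by amounts from -0.10 to -1.26. The brightest read 342 for CD4 IEL and 319 for CD4CD8aa IEL, raw signals of 28226 and 25863, and gave -0.10, well within the same-gene SD of 0.35 at this signal. The next had 333 and 252 and gave -0.40. In these probe sets CD4CD8aa IEL kept 93.2% and 75.7% of the CD4 IEL signal.

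The middle pair of Nfkbia probe sets gave the larger values. One had 126.6 and 57.7, raw signals of 10444 and 4680, a 2.19-fold lower signal. The other had 95.5 and 39.9, raw signals of 7876 and 3236, a 2.39-fold lower signal. Both differences were over 3 times the same-gene SD (3.20 and 3.06 times). The dimmest probe set had 6.59 and 4.27, a difference of -0.63, 1.38 times the SD.

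The size of the Nfkbia difference therefore depends on the probe set: it was -0.10 by the brightest and -0.63 by the median of the 5, and the probe sets were 1.16 apart on the log2 scale. The brightest Nfkbia probe sets stood at ranks 144 and 159 of 45101 on the CD4 IEL array, where the highest signal was 682. Of the 258 probe sets above 200 on that array, 1.94% were at least 2-fold lower in CD4CD8aa IEL, beside 2.88% of the 1491 between 50 and 200.

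Nfkbib, which encodes IkB-beta, had 15.8 and 16.2 at its brighter probe set, a difference of 0.03. Its dimmer probe set had 1.15 and 2.19, a difference of 0.92, 1.38 times the SD of 0.67 near the array median. The pair thus disagreed, with the larger difference at the lower signal. Nfkbie, which encodes IkB-epsilon, had 32.7 and 34.3 at one probe set and 9.62 and 9.60 at the other. Its differences of 0.07 and 0.00 were the most alike of any member with several probe sets.

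**Figure D2:**
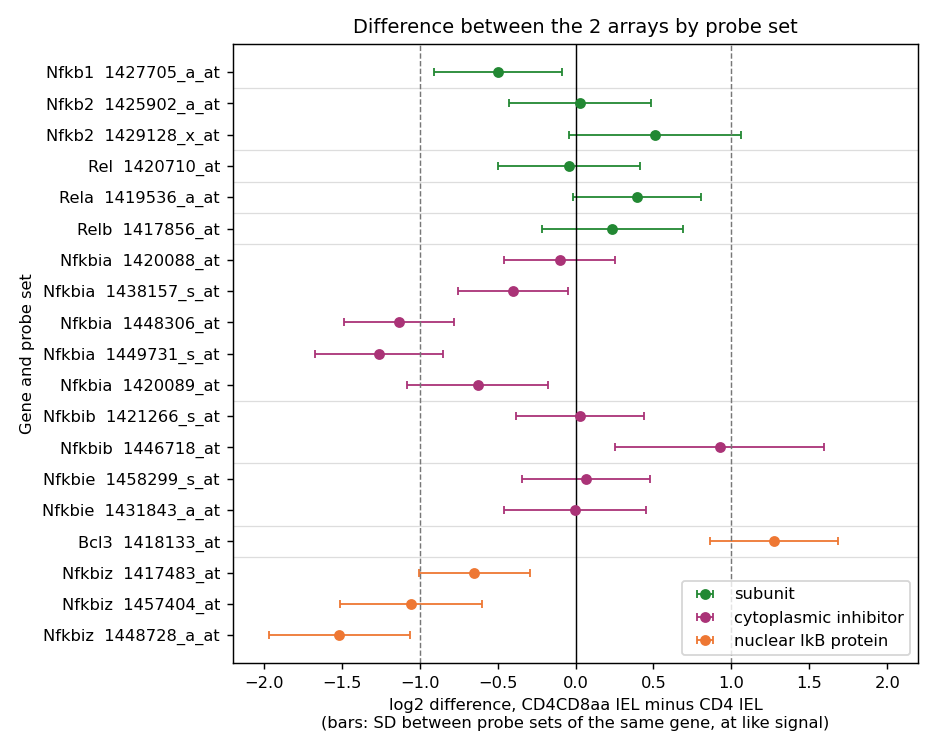
Log2 difference of each of the 19 member probe sets (CD4CD8aa IEL minus CD4 IEL), coloured by role, with bars of 1 SD between probe sets of the same gene at like signal and dashed lines at 2-fold. Bcl3 lies at 1.27, the 3 Nfkbiz probe sets between -1.51 and -0.65, the 5 Nfkbia probe sets between -1.26 and -0.10, and the subunits between -0.50 and 0.51.

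The nuclear IkB proteins had the largest differences of the family, in opposite directions. Bcl3, known as a partner of the processed subunits and as a survival factor of activated T cells in mice, had 28.7 on the CD4 IEL array and 69.4 on the CD4CD8aa IEL array, raw signals of 2372 and 5631. This was 2.42-fold higher in CD4CD8aa IEL, a log2 difference of 1.27 and 3.10 times the same-gene SD. Of the 3800 detected probe sets at 16 to 64 times the array median, 23 (0.605%) were at least as much higher. Bcl3 has 1 probe set, so no other value on these arrays checks it.

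Nfkbiz was lower in CD4CD8aa IEL at all 3 probe sets. The brightest had 130.9 and 83.5, raw signals of 10801 and 6774, a difference of -0.65 and 1.83 times the SD. The next had 18.9 and 6.60, 2.86-fold lower, and the last 16.6 and 7.99, 2.08-fold lower. Both dimmer probe sets passed 2-fold, which the brightest did not, and the median over the 3 was -1.06. Nfkbia and Nfkbiz were the 2 members with 3 or more probe sets, and every one was lower for both, as was so for 12.2% of the 3199 genes with 3 or more detected probe sets.

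Another nuclear IkB gene, Nfkbid, is not a member but belongs to the same class, and its product IkB-NS is known for its part in regulatory T cell development in mice. Its single probe set had 45.0 and 79.2, a difference of 0.82. It thus leaned the same way as Bcl3 without reaching 2-fold.

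**Figure D3:**
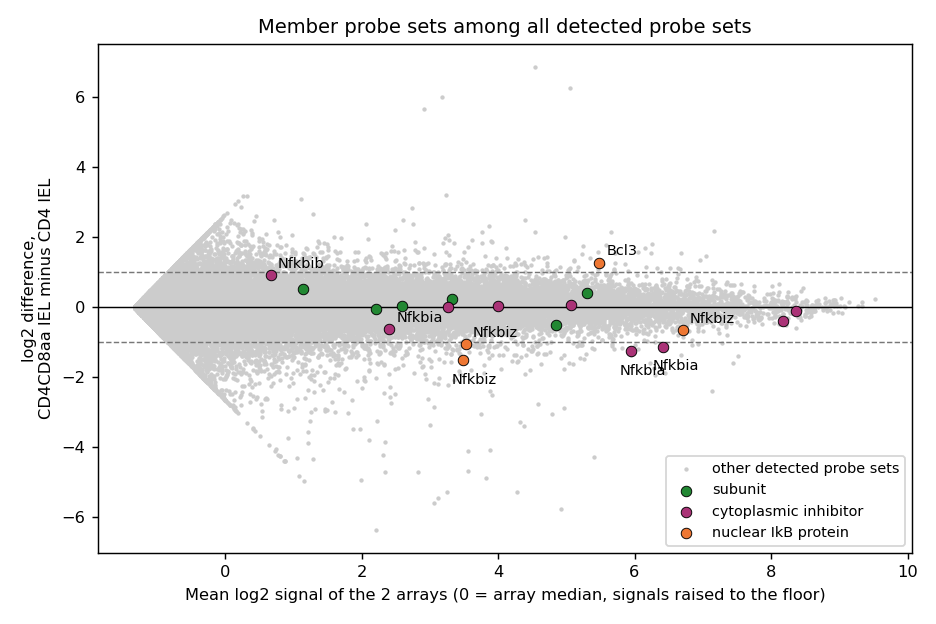
Log2 difference (CD4CD8aa IEL minus CD4 IEL) against mean log2 signal for all detected probe sets with a single symbol (grey) and for the 19 member probe sets (coloured by role, those with a difference beyond 0.6 named), with dashed lines at 2-fold. The grey cloud narrows with signal. At its edge lie Bcl3 at 1.27, 2 Nfkbia probe sets at -1.13 and -1.26, and 1 Nfkbiz probe set at -1.51.

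The genes around the family were taken as 7 lists by role, with 98 of their 101 genes matched and detected. Counts at 2-fold for each list use the brightest probe set of a gene. They stand beside 6.65% upwards and 6.26% downwards of all detected genes. Of the 12 genes of the IKK complex and its kinases, 0 reached 2-fold in either direction, and their median was -0.19. Ikbkb, the catalytic subunit IKK-beta and the brightest of them, had 92.1 and 120, a difference of 0.38, but its 3 probe sets ran from -0.17 to 2.34. Map3k7 (up to 1.56) and Tab2 (down to -1.13), picked out after the values were seen, also passed 2-fold at another probe set. Of the 10 genes that link the T cell receptor to IKK, 0 reached 2-fold, with a median of 0.08; the brightest, Ube2v1, a cofactor of ubiquitin chain building, had 80.8 and 107.6. The 7 further IkB-like and nuclear regulators, Nfkbid among them, had a median of -0.18 and 0 at 2-fold.

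Of the 23 receptors and adaptors that feed NF-kappa-B, 6 passed 2-fold downwards and 2 upwards, beside 6.26% and 6.65% of all detected genes. Their median was -0.24, but -0.054 when each gene was given by the median over its probe sets. The costimulatory receptor Cd28 had 59.6 for CD4 IEL and 2.35 for CD4CD8aa IEL. The IL-1 receptor Il1r1 had 10.96 and 0.54. The TNF family receptors Tnfrsf25, which encodes DR3, and Tnfrsf4, which encodes OX40, had 19.2 and 1.35, and 35.7 and 6.33. All of these were lower by more than 5-fold, but the size for the dimmer ones depends on the floor: with signals under 4 array medians raised to that level, the difference of Il1r1 was -1.45 in place of -4.34, that of Tnfrsf25 -2.26 in place of -3.83, and that of Cd28 -3.90 in place of -4.67.

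The IL-18 receptor Il18r1 had 152.8 and 40.3, and was 3.80-fold lower. The IL-33 receptor Il1rl1 was at least 11.1-fold lower at its brighter probe set, from 4.43, with -0.21 at its other probe set, and its difference was -0.15 with a floor of 4 array medians. In the other direction, the costimulatory receptor Cd27 had 1.38 and 4.90 (3.54-fold higher), though its difference was 0.29 once signals under 4 array medians were raised to that level. Cd40, a receptor of antigen-presenting cells, stayed under the array median on both arrays, and its difference of 1.03 became 0.03 with the floor 2 times as high. Tnfrsf1b, the TNF receptor with the brightest signal among the receptors within 2-fold, had 34.7 and 54.9, a difference of 0.66, but -0.50 at its other probe set.

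Among the 7 TRAF and cIAP genes, which carry signals from TNF family receptors, 1 passed 2-fold downwards, and the median was 0.11. This was Traf1, an adaptor that is also a known NF-kappa-B target, with 62.2 and 24.5 at its brighter probe set, a difference of -1.34, but 22.6 and 23.2 at the other, a difference of 0.04. Birc3, which encodes cIAP2, differed by -0.27. The 10 detected genes of ubiquitin editing and feedback had a median of 0.09 and 0 at 2-fold. Otud7b, picked out after the values were seen, reached 1.33 at another probe set. The brightest of these genes, Tnfaip3, encodes A20, which switches the pathway off and is a known NF-kappa-B target like Nfkbia. It had 292 and 316 at its brighter probe set and 11.1 and 4.87 at its dimmer one, differences of 0.11 and -1.19.

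Known target genes of NF-kappa-B went both ways, and as a group their median was -0.05 over 38 detected genes, of which 4 passed 2-fold upwards, 8 downwards and 26 neither, beside 6.65% upwards and 6.26% downwards of all detected genes. The lower ones include cytokine genes of helper T cells: Il2 had 7.97 and 0.68 (11.7-fold lower) and Csf2, which encodes GM-CSF, 21.0 and 5.03 (4.19-fold lower). With a floor of 4 array medians the difference of Il2 was -0.995, short of 2-fold. Il2ra, the IL-2 receptor alpha chain, had 3.91 and 1.72 (2.28-fold lower, and -0.97 with a floor of 2 array medians), and Tnfrsf4 and Traf1 stand above. Ccr7, a homing receptor of naive cells, was at least 2.51-fold lower from a signal near the array median, and its difference was -0.33 with the floor 2 times as high.

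The remaining pair of lower targets, Tnf and Cd44, was picked out after the values were seen, with differences of -1.08 and -1.09. The higher ones were led by chemokine genes, with Ccl4 at 59.9 and 175.8 (2.94-fold higher) and Ccl3 at 30.7 and 89.1 (2.91-fold higher). Vcam1, an adhesion molecule of endothelium, was 3.33-fold higher at its brightest probe set, but its 4 detected probe sets ran from -1.03 to 2.08. The fourth was Cd40. The brightest target, Ccl5, had 424 and 459, a difference of 0.11.

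**Figure D4:**
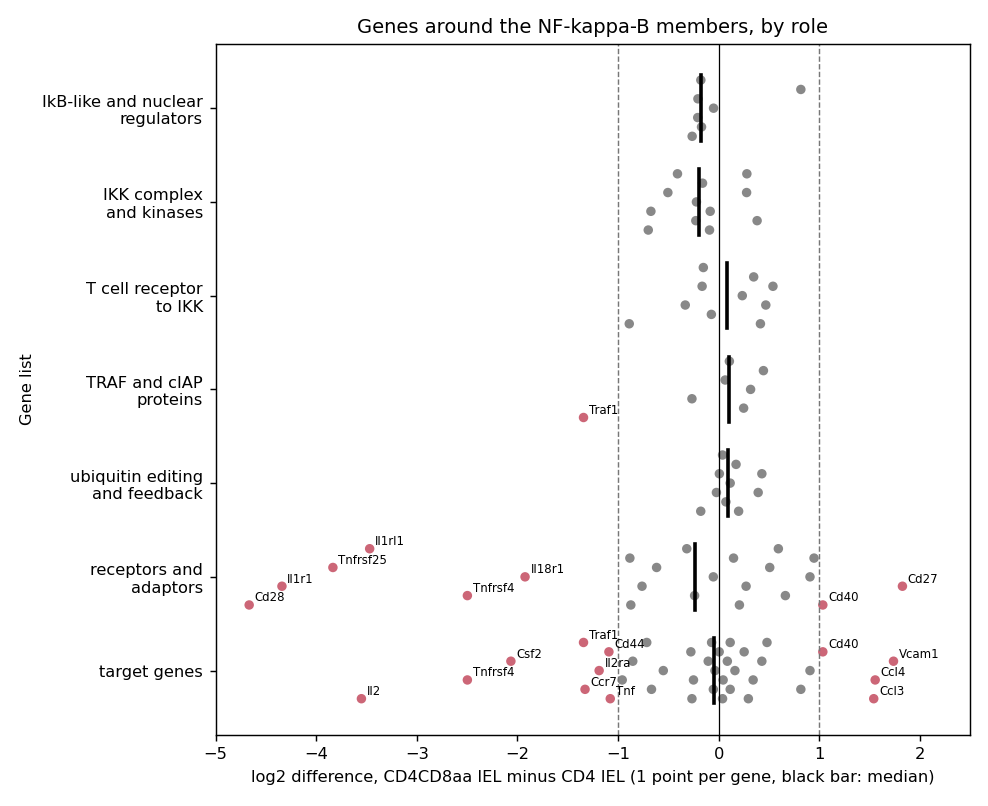
Log2 difference (CD4CD8aa IEL minus CD4 IEL) of each detected gene of the 7 lists, 1 point per gene at its brightest probe set, with the median of each list as a black bar and genes at least 2-fold apart in red with their names. The largest differences lie among the receptors, with Cd28 at -4.67, while no gene of the IKK list or of the ubiquitin editing list passes 2-fold.

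Nfkbia, Nfkbiz and Bcl3 are also expressed outside T cells, so markers of other cells were measured on the same arrays. Over its matched genes, the small intestinal epithelial list (16 of 17 genes) summed to 131.6 for CD4 IEL and 78.1 for CD4CD8aa IEL, with 1 gene past 2-fold upwards and 4 downwards, none of them at 0, and Reg3b (60.8 and 22.3) and Krt18 (13.3 and 4.74) the brightest. Most of the fall of this sum lay in Reg3b, and 5 of the 16 genes were higher. The myeloid list (9 of 10) had 25.7 and 30.2, led by Csf1r (9.79 and 10.2) and Cd68 (3.44 and 4.87), with Itgam below the floor on both arrays; most of its rise lay in Itgax (1.76 and 5.33), picked out after the values were seen, without which it summed to 24.0 and 24.8. The B cell list (5 of 6) had 5.45 and 3.75, led by Blk (2.72 and 1.86) and Ms4a1 (0.81 and 0.79), with Jchain below the floor. The list of fibroblasts and endothelium (8 of 8) had 6.21 and 3.99, led by Pecam1 (2.41 and 0.21) and Pdgfra (1.10 and 0.39), with Col1a1 below the floor. Nearly all of the fall of this list lay in Pecam1, and 3 of its 7 detected genes were higher.

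The NK cell list (6 of 6) had 225.6 and 351.2, nearly all from Nkg7 (221.4 and 348.8), which cytotoxic T cells express as well, followed by Klrb1c (1.41 and 0.71), with Klra8 below the floor. Without Nkg7 the other 5 NK genes summed to 4.21 and 2.40, Eomes (2.17 and 0.43) and Klrb1c being lower and Klre1 (0.16 and 1.06) higher in CD4CD8aa IEL. The T cell list (7 of 7) had 1107 and 1204, led by Lck (313 and 347) and Cd3g (270.9 and 335.3), with 4 of the 7 genes higher. Picked out after the values were seen, Cd2 (62.3 and 9.18) passed 2-fold downwards and Cd3e (59.0 and 118.3) upwards. On the CD4CD8aa IEL array the summed epithelial, B cell and stromal signal was thus lower, and the myeloid and T cell sums were higher. The changes of the epithelial, stromal and myeloid sums lay mostly in Reg3b, Pecam1 and Itgax. The part of other cells in the differences of Nfkbia, Nfkbiz and Bcl3 was not tested. In such sorted pools, fewer cells with a transcript and less transcript per cell cannot be told apart.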

How the data were processed

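RNA of sorted CD4 IEL and CD4CD8aa IEL was hybridised to 1 Affymetrix Mouse Genome 430 2.0 array each, per the labels and the series' design text. The authors deposited raw intensities, for which the submitters' processing notes name GCOS 1.2, and normalized intensities that equal raw over array median. They also deposited log2 and linear fold values (CD4 over CD4CD8aa, a ratio per the file headers), opposite in sign to the differences here and used only as a check. The 2% trimmed mean of the raw intensities was 500.0 on both arrays, so they were already on a common scale. Raw here thus means before division by the array median, not unscaled. Background correction and summarisation are not stated in the labels.

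Values were computed as raw over array median with Python 3.11.15, numpy 2.4.6 and pandas 2.3.3. The floor of 0.4 is the higher of the arrays' 30th percentiles, and detection means exceeding it on at least 1 array. A gene is represented by its probe set of highest mean log2 signal. The same-gene SD rests on 20176 detected probe sets of 7379 genes. Probe sets with several symbols (1399), none (5821), a date for a symbol (45) or controls (64) were left out of gene counts. The calculation was run on simulated arrays with noise below the same-gene SD of these arrays, which checks the code and not the precision of the data. The members and lists were chosen with earlier results of these data known. Named from each list were the genes at least 2-fold apart, up to 6 per direction, and the brightest within 2-fold, and from marker lists the 2 brightest, all by mean log2 signal. List genes were matched by symbol, 3 of them by a RefSeq synonym. The arrays' number limits precision, and there are no replicates. A marker gene of the B cell list is not reported here.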

Additional observations from a re-analysis of the deposited data

How the results depend on the processing

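No paired analysis was possible because each group holds 1 array. The 10 alternatives (no floor and 3 higher floors, raw intensities, quantile normalization, centring, the median over probe sets, leaving out s and x probe sets, and the series matrix values) gave 100 member values, of which 63 equal the reported value. The floors leave bright genes alone, and the series matrix holds the same values. The probe set alternatives leave alone a gene with 1 probe set, and leaving out s and x probe sets one whose brightest is not of that kind. Of the other 37, 33 stayed within the same-gene SD of it and 4 did not. All 4 came from the probe set alternatives. Raw intensities and centring shift every member by a constant far below that SD, so they could not pass it. Quantile normalization moved the members little as well. The 33 are therefore no measure of how firm the values are. For Bcl3, the 1 member reported at 2-fold, only raw intensities, quantile normalization and centring could change the value, to 1.25, 1.25 and 1.21. Shifts of this size could not reverse its sign, so the sign was not put to a test. Near 0 the sign did change: Nfkb2 was at -0.01 and Nfkbib at -0.02 with quantile normalization, both were at -0.03 with centring, and Nfkbie was at -0.003 without s and x probe sets. The median over probe sets gave -0.63 for Nfkbia, 0.48 for Nfkbib and -1.06 for Nfkbiz, so that 1 member was at least 2-fold lower in place of 0. It also gave list medians of -0.054 for the receptors and -0.16 for the target genes. Without s and x probe sets, Nfkbib was at 0.92 and the receptors at -0.076. Entries of the 7 lists at least 2-fold higher fell from 6 to 3 with a floor of 4 array medians and with the median over probe sets. Over all genes, those at least 2-fold higher and lower numbered 1156 and 1088, 1998 and 1960 without a floor, and 141 and 140 with a floor of 4 array medians. In the choice of probe set lies the main limit for Nfkbia, Nfkbib and Nfkbiz, and for Bcl3 that it has 1.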

Other observations

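The deposited symbols and descriptions for Nfkbib were also mixed. The probe set with the symbol Mrps12 and that with the symbol Eif3k both carry the description of the beta inhibitor, and had signals of 15.4 and 8.40 (difference -0.88) and of 93.8 and 73.3 (difference -0.36). Neither gene overlaps Nfkbib in RefSeq. Neither probe set was counted for Nfkbib, whose own probe sets gave 0.03 and 0.92.

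Malt1, the protease that joins the T cell receptor to IKK, was picked out after its values were seen. Its 3 probe sets were all lower in CD4CD8aa IEL, with signals of 9.83 and 5.30, 8.33 and 6.07, and 5.43 and 2.47, and differences of -0.89, -0.46 and -1.14. The brightest did not reach 2-fold.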
